A study of Mus musculus with 4 samples.

Results

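Transcription factors that set the fate of diencephalic and midbrain dopaminergic neurons were read in bulk RNA-seq of mouse embryonic telencephalic tissue at E13. The 9 genes were taken by symbol, for their known roles, from the 27293 genes of the deposited count table, and all 9 were found there: Otx2, Lmx1a, Lmx1b, Foxa2, Foxb1, Barhl2, Tcf7l2, Gbx2 and Nr4a2. The table holds 4 libraries of C57BL/6 embryos, 2 labelled WT and 2 labelled STINGf/f;Nestin-Cre (STINGcKO, written cKO below). In the cKO embryos both STING alleles are floxed and Cre is driven by the Nestin promoter, which is active in neural progenitors, while the RNA came from all cells of the tissue. The title of WT 1 ends in wt and that of WT 2 in nes, an abbreviation the labels do not explain. The labels also leave unsaid whether the WT embryos carried floxed alleles or Cre, and whether a library was 1 embryo or a pool. The p-values below therefore set the difference between the labels against the spread between libraries of a label, whatever its source. That spread was estimated with information shared across genes. The comparison of cKO with WT bears on a dopaminergic differentiation term that the study drew from its differentially expressed genes (DEGs).

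Pairs of values per group are given in the order of replicate 1 and replicate 2. Total counts on genes ran from 17209654 to 18533391 per library. The STING gene itself, listed as Tmem173, had from 18 to 22 counts in every library, so its gene-level count does not separate the labels. Y-chromosome genes (Ddx3y, Eif2s3y, Kdm5d and Uty, summed) had 0 counts in WT 2 and 1848 to 3002 in the others. Marker genes of the labelled tissue were abundant. The 12 telencephalic and cortical markers summed to between 3145 and 3847 CPM (counts scaled to a common library size with edgeR's TMM factors). The 8 midbrain and isthmus markers read here summed to between 1.01 and 3.11 CPM and the 3 hindbrain markers to between 0.656 and 1.03 CPM, so RNA of those territories was near the lower limit of these libraries, where 3 counts correspond to 0.163 to 0.173 CPM.

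The midbrain makes dopaminergic neurons from its floor plate. Foxa2 and the LIM homeodomain factors Lmx1a and Lmx1b give floor plate progenitors that fate under Sonic hedgehog and Wnt1 signals, Otx2 keeps them midbrain in character, and the nuclear receptor Nr4a2 (Nurr1) turns on the genes for dopamine synthesis once they leave the cell cycle. Gbx2 opposes Otx2 at the border of midbrain and hindbrain and later marks thalamic neurons, Tcf7l2 is a Wnt effector that shapes the thalamus and habenula, Barhl2 acts in the diencephalon, and Foxb1 marks the mammillary region and parts of the thalamus. Several of these genes are also used inside the telencephalon. Lmx1a is a gene of the cortical hem and roof plate, Otx2 is needed by the choroid plexus, and Nr4a2 marks early subplate and claustral neurons.

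The promoter windows of Otx2 and Lmx1a are shown because these were the only members whose level differed by 2-fold or more between the WT libraries among those tested. They are RefSeq windows on GRCm38.p6 of 250 bases before to 50 after a start site, printed 5′ to 3′ on the minus strand for Otx2 and the plus strand for Lmx1a. Windows were found for 8 of the 9 genes, 14 windows in all. Otx2 has 4 of them, of which the 2 printed hold a match to a motif searched and the other 2 hold none. Capitals mark 2 motifs, the homeodomain motif TAATTA and the bicoid-type motif TAATCC that Otx proteins bind, found on either strand. The upper Otx2 window lies at the start of the deposited gene (chr14:48667595-48667894) and the second at an internal start (chr14:48665060-48665359). The Lmx1a window is chr1:167689308-167689607.

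Otx2, upper start: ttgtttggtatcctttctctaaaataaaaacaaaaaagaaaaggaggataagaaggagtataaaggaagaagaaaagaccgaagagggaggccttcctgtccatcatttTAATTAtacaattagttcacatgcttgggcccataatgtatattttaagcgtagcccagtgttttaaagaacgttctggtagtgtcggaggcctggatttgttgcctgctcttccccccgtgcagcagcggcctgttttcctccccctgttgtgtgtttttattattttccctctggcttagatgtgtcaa

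Otx2, internal start: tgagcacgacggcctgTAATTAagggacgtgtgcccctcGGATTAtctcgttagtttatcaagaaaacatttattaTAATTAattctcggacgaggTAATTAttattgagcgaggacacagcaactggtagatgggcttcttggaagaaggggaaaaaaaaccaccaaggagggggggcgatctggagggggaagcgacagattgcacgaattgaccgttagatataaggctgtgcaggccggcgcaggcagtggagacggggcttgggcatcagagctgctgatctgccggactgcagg

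Lmx1a: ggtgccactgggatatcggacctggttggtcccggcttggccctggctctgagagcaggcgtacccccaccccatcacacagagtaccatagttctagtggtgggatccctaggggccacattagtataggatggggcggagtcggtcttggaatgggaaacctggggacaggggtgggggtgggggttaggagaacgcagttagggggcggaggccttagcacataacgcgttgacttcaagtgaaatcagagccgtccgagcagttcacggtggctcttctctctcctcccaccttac

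Among the windows printed, the upper Otx2 window held 1 TAATTA, the internal window held 3 and also 1 TAATCC in reverse (GGATTA), and the Lmx1a window held neither. None of these matches overlapped another. Among 32851 promoter windows of the same length, TAATTA was found in 5.29% and TAATCC in 7.06%. The forkhead motif GTAAACA (3.65% of windows), the TCF/LEF motif ATCAAAG (3.73%) and the NR4A motif AAAGGTCA (1.51%), searched on both strands, were in none of these 3 windows. A match is a run of letters and no more, and binding was not measured in these libraries.

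Levels of the 9 genes covered a wide range. Per kilobase of exon (GENCODE M21, all exons merged), Nr4a2 stood highest with a mean level of 6.15 CPM per kilobase over the 4 libraries, followed by Barhl2 with 5.24, Otx2 with 2.26, Tcf7l2 with 1.48, Gbx2 with 0.866 and Lmx1a with 0.534. Foxb1 (0.0603), Lmx1b (0.0324) and Foxa2 (0.0243) formed a lower tier on the same scale. Neighbours in this order mostly overlapped across libraries. Nr4a2 ran from 5.39 to 6.81 CPM per kilobase and Barhl2 from 3.66 to 5.87, while the range of Otx2, 0.919 to 4.88, reached into those of Barhl2 and Tcf7l2. Tcf7l2 (1.26 to 1.76) and Gbx2 (0.603 to 1.19) did not overlap, and Lmx1a (0.0959 to 1.41) spanned all of the range of Gbx2. The total counts of Lmx1b, Foxa2 and Foxb1 were at most 13, and these 3 did not pass the filter on low counts, so 6 of the 9 genes were tested.

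**Figure D1:**
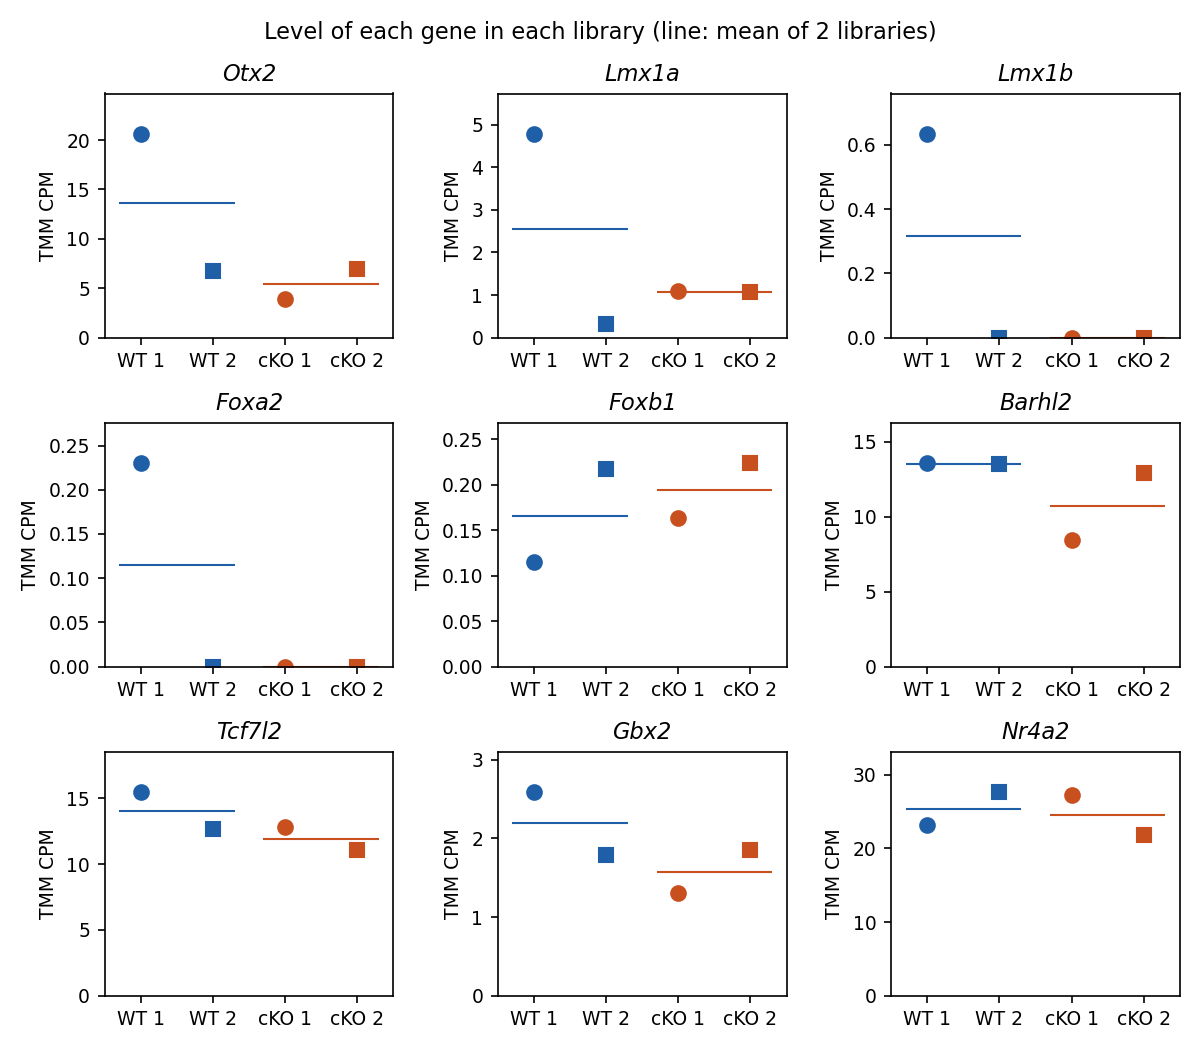
Level of each of the 9 genes in CPM (linear axis from 0, 1 panel per gene) in the WT libraries (blue) and cKO libraries (orange), with circles for replicate 1, squares for replicate 2 and a line at the mean of each group. WT 1 stands above the other 3 libraries for Otx2 (20.6 CPM), Lmx1a (4.77 CPM) and Lmx1b (0.633 CPM), while the WT and cKO points of Nr4a2 lie among each other.

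All 6 genes tested had a log2 fold change below 0 in cKO, as had 52.1% of the 16145 genes tested. Their median log2 fold change was -0.40, beside -0.01 over all genes. Otx2 was the 1 gene that met the study's DEG thresholds, a fold change of at least 2 with an unadjusted p of at most 0.05, which 0.669% of all genes tested met in the lower direction (1.23% had an unadjusted p under 0.05 in either direction). None of the 6 had an adjusted p under 0.05 in edgeR's quasi-likelihood fit, nor did any gene of the table (0% of genes tested), and DESeq2 gave 0 of the 6 as well. The WT and cKO libraries did not overlap for 1 of the 6, Barhl2, and 10.8% of all genes had both cKO libraries below both WT libraries. The highest value was in WT 1 for 5 of the 6, against 25.1% of all genes, and WT 1 was at least 2-fold above WT 2 for 2 of the 6, Otx2 and Lmx1a, against 4.31% of all genes.

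Otx2 (ENSMUSG00000021848), which specifies forebrain and midbrain and is kept on in choroid plexus epithelium, spans 48657679 to 48667644 of chromosome 14 (minus strand) in the deposited table, and GENCODE M21 extends the gene to 48673819. It had 358 and 124 counts in the WT libraries and 71 and 125 in the cKO libraries. These correspond to 20.6, 6.73, 3.88 and 7.00 CPM in the same order. WT 1 was high, cKO 1 was low, and WT 2 and cKO 2 were nearly equal, so the groups overlapped. Mean levels were 13.7 ± 9.80 CPM for WT and 5.44 ± 2.20 CPM for cKO (SD over 2 libraries each). This gave a log2 fold change of -1.33 (standard error 0.51, 95% interval -2.52 to -0.14), with an unadjusted p of 0.0328 and an adjusted p = 0.9999 from edgeR. With WT 1 left out the log2 fold change was -0.31 and with cKO 1 left out -0.96, and neither met the thresholds. With WT 2 left out it was -1.91, with an adjusted p of 0.000403 from edgeR in that fit, which assumes that the lone WT library would vary like the others.

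The distance between the WT libraries can be set beside that between the labels. For Otx2 the level in WT 1 was 3.06 times that in WT 2 (exact 95% interval 2.49 to 3.78, which covers counting error only, as do all such intervals here). The ratio of cKO 1 to WT 1 was 0.188 (0.144 to 0.244), and that of cKO 2 to WT 2 was 1.04 (0.804 to 1.34). The ratio between the cKO libraries, cKO 1 to cKO 2, was 0.555 (0.409 to 0.748). The labels do not say whether the replicate numbers pair the libraries, so the other ratios stand beside these. They were 0.576 (0.424 to 0.778) for cKO 1 to WT 2 and 0.340 (0.275 to 0.418) for cKO 2 to WT 1. Otx2 was thus lower in cKO beyond counting error in 3 of the 4 ratios, cKO 2 to WT 2 being the exception. The 4 ratios share libraries and are not independent of each other. Both ratios within a label also differed from 1 beyond counting error.

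**Figure D2:**
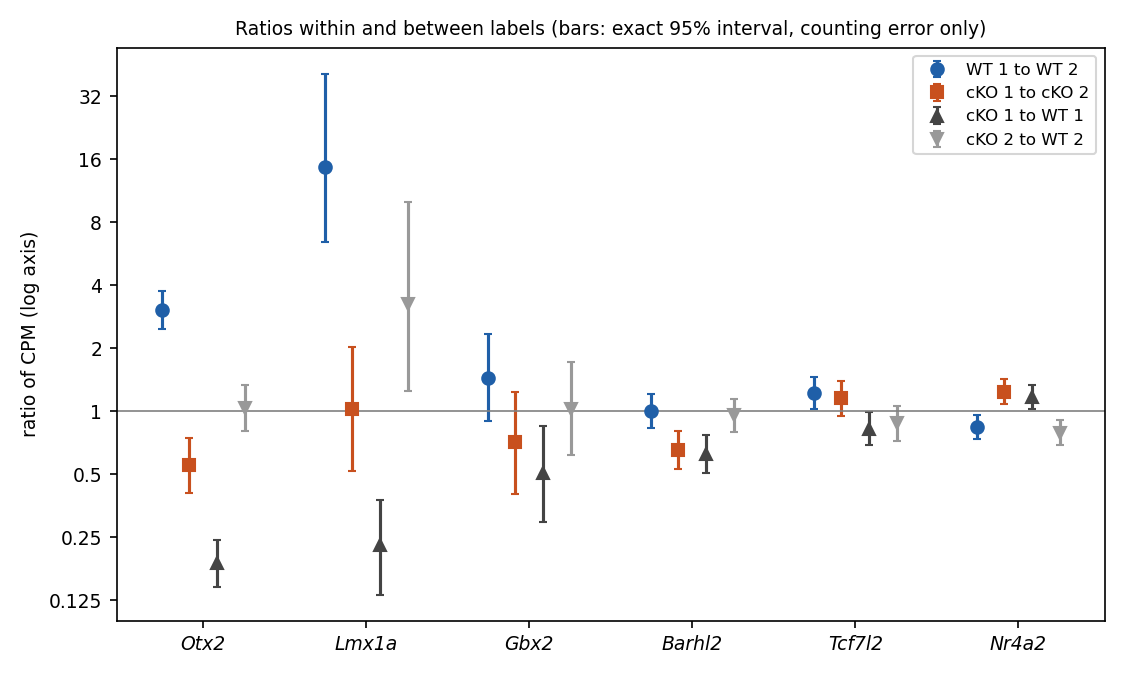
Ratios of CPM between single libraries (log axis) for the 6 genes tested, within a label (WT 1 to WT 2, blue; cKO 1 to cKO 2, orange) and, for libraries of the same number, between labels (cKO 1 to WT 1, dark grey; cKO 2 to WT 2, light grey), with exact 95% intervals for counting error. For Otx2 and Lmx1a the ratio of WT 1 to WT 2 (3.06 and 14.6) lies far from 1, and the ratios of cKO 1 to WT 1 (0.188 and 0.229) lie below 1. The ratio of cKO 2 to WT 2 is close to 1 for Otx2 (1.04, with an interval that spans 1) and above 1 for Lmx1a (3.26).

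Lmx1a (ENSMUSG00000026686, chromosome 1, 167689237 to 167848741, plus strand), a determinant of roof plate, cortical hem and midbrain dopaminergic progenitors, had 83 counts in WT 1 and 6 in WT 2. The cKO libraries were close to each other, with 20 counts in cKO 1 and 19 in cKO 2, and fell between the WT libraries. The level was 2.55 ± 3.14 CPM in WT (SD, n = 2) and 1.08 ± 0.0210 CPM in cKO (SD, n = 2), and the log2 fold change of -1.23 (standard error 0.93, 95% interval -3.38 to 0.92) had an unadjusted p of 0.224 and an adjusted p = 0.9999 from edgeR. WT 1 alone set the sign. Without WT 1 the log2 fold change was 1.70, and without WT 2 it was -2.13 with an adjusted p of 0.0282 from edgeR. WT 1 was 14.6 times as high as WT 2 (exact 95% interval 6.45 to 41.1), and cKO 2 was 3.26 times as high as WT 2 (1.25 to 9.98).

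Lmx1b, the paralog of Lmx1a that acts with it in dopaminergic progenitors (ENSMUSG00000038765, chromosome 2, 33560965 to 33640511, minus strand), was counted in 1 library only. It had 11 counts in WT 1 and 0 in WT 2, cKO 1 and cKO 2. A count of 0 was given a limit of 3 counts per library. The WT mean was 1.91 times this limit for cKO, and WT 1 was 3.88 times this limit for WT 2. Neither value allows for counting error in the 11 counts, and the WT mean rests on WT 1 alone. With that error included, the exact 95% interval for the ratio of WT 1 to WT 2 started at 2.66. Foxa2, the forkhead factor of the floor plate (ENSMUSG00000037025, chromosome 2, 148042877 to 148046969, minus strand), had 4 counts in WT 1 and 0 in the other 3 libraries. Its group means were under that limit, so no fold is given, and a difference between the labels was not detectable at this depth.

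Nr4a2 (ENSMUSG00000026826, chromosome 2, 57106830 to 57124003, minus strand), the nuclear receptor of postmitotic dopaminergic neurons, was the most abundant member and the one with the smallest difference. It had 403 and 509 counts in the WT libraries and 498 and 391 in the cKO libraries. The highest and the lowest library carried different labels, and each group held a high and a low library. The level was 25.4 ± 3.16 CPM in WT and 24.5 ± 3.77 CPM in cKO (SD, n = 2 each), a log2 fold change of -0.05 (standard error 0.20) with a 95% interval from -0.52 to 0.42 and an unadjusted p of 0.811 in edgeR's fit. A 2-fold difference in either direction lies outside this interval. The sign turned to 0.10 without WT 2 and to 0.11 without cKO 2.

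Barhl2 (ENSMUSG00000034384, chromosome 5, 106452523 to 106458166, minus strand), a homeodomain factor of the diencephalon, had 236 and 249 counts in the WT libraries and 155 and 231 in the cKO libraries. The WT libraries were alike at 13.6 and 13.5 CPM, cKO 2 was just under them at 12.9 CPM, and cKO 1 was low at 8.47 CPM. The log2 fold change was -0.34 (standard error 0.26, 95% interval -0.95 to 0.27, unadjusted p of 0.231 in edgeR's fit). It was -0.07 without cKO 1 and -0.66 without cKO 2. The ratio of cKO 2 to WT 2 was 0.956 (exact 95% interval 0.796 to 1.15), so the gap that kept the groups apart was within counting error on that side.

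Gbx2 (ENSMUSG00000034486, chromosome 1, 89927956 to 89931179, minus strand), a homeodomain factor of thalamic neurons and of the anterior hindbrain, had 45 and 33 counts in the WT libraries and 24 and 33 in the cKO libraries. WT 1 was highest and cKO 1 lowest, as for Otx2, and the groups overlapped at 1.79 CPM in WT 2 and 1.85 CPM in cKO 2. The log2 fold change was -0.47 (standard error 0.42, 95% interval -1.44 to 0.50, unadjusted p of 0.298 in edgeR's fit), and at -0.18 without WT 1 it was less than a 2-fold difference in every fit that left out a library. Tcf7l2 (ENSMUSG00000024985, chromosome 19, 55741810 to 55933654, plus strand) had 269 and 233 counts in the WT libraries and 234 and 198 in the cKO libraries. Its CPM of 12.7 in WT 2 and 12.8 in cKO 1 overlapped, and the log2 fold change was -0.24 (standard error 0.23, 95% interval -0.76 to 0.29, unadjusted p of 0.330 in edgeR's fit). Foxb1 (ENSMUSG00000059246, chromosome 9, 69757710 to 69760940, minus strand), of the mammillary region, had 2 and 4 counts in the WT libraries and 3 and 4 in the cKO libraries. Summed by label, cKO stood at 1.15 times WT (exact 95% interval 0.332 to 4.16), so the depth sets no close bound on a difference in this gene.

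**Figure D3:**
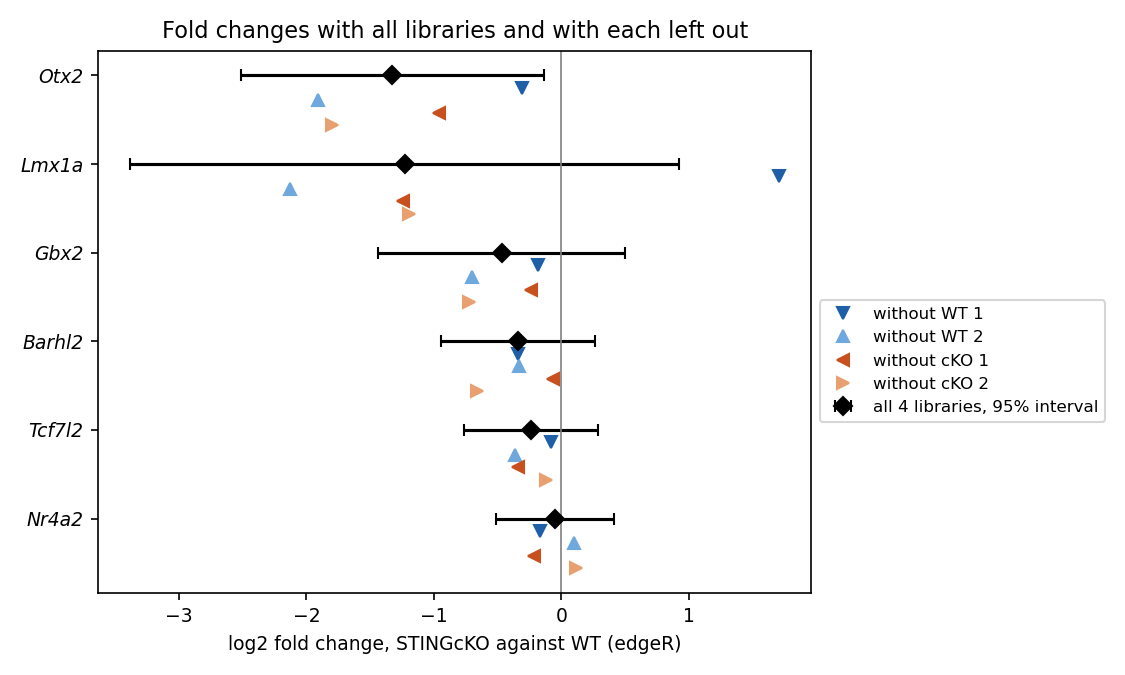
Log2 fold change of cKO against WT in edgeR's fit for the 6 genes tested, with all 4 libraries (black diamonds, 95% interval) and with each library left out in turn (triangles, drawn below the diamond of their gene). Otx2 moves from -1.33 to -0.31 and Lmx1a from -1.23 to 1.70 without WT 1, while Tcf7l2 and Nr4a2 stay within 0.4 of 0 in every fit shown.

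The other genes of the dopaminergic program gave no calls. Of the 9 further midbrain floor plate and progenitor genes, 6 were in the table and 3 were tested (Shh, Msx1 and Neurog2), and 0 had an unadjusted p under 0.05 in either direction. Shh, the floor plate signal that induces Foxa2, had 51 and 34 counts in the WT libraries and 7 and 27 in the cKO libraries. It did not overlap between the groups, with a log2 fold change of -1.33 (standard error 0.62, unadjusted p of 0.0638 in edgeR's fit), and cKO 1 was its low library. Neurog2 did not overlap in the other direction, with 281 and 276 CPM in the WT libraries and 299 and 289 CPM in the cKO libraries. Of all genes tested, 10.8% were lower and 11.0% higher in both cKO libraries than in both WT libraries. Of 11 further genes of dopaminergic neurons, 10 were in the table and 8 were tested, and 0 had an unadjusted p under 0.05. Their median log2 fold change was -0.11. The smallest p belonged to Slc18a2, the vesicular monoamine transporter, with 635 and 428 counts in the WT libraries and 448 and 282 in the cKO libraries and a log2 fold change of -0.57 (standard error 0.29, unadjusted p of 0.0829). Th, the rate-limiting enzyme of dopamine synthesis, was counted 55 and 74 times for WT against 29 and 60 for cKO, so its groups overlapped (unadjusted p of 0.247). Slc6a3, the dopamine transporter, named after its values were seen, had 2 or 3 counts in every library.

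The dopaminergic neuron differentiation term was also read from the annotation in the deposited table, where 23 genes carry it. Of the members, 4 carry it: Lmx1a, Lmx1b, Foxa2 and Nr4a2. Of the other 19 genes, 12 were tested, 0 had an unadjusted p under 0.05, 7 had a log2 fold change below 0 and 5 above, and the median was -0.02. Of the 12, 4 (Sfrp1, Vegfd, Manf and Dmrta2) were higher in both cKO libraries than in both WT libraries, beside 11.0% of all genes tested. In the lower direction there was 1, Shh, beside 10.8% of all genes tested. WT 1 was at least 2-fold above WT 2 for 3 of the 12, against 4.31% of all genes tested. Among the 3 were the cortical hem signals Wnt3a (72 and 6 counts for WT, 6 and 20 for cKO) and Rspo2 (166 and 12, then 30 and 38). In both genes WT 1 was highest and WT 2 did not exceed either cKO library, as for Lmx1a.

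The thalamic and hypothalamic lists gave no calls either. Of 16 further thalamic and pretectal genes, all were in the table and 11 were tested, and 0 had an unadjusted p under 0.05. Their median log2 fold change was -0.19, with Prox1 (-0.24, standard error 0.19) having the smallest p. Of 15 further hypothalamic genes, 5 were tested and 0 had an unadjusted p under 0.05 (median log2 fold change -0.38). This list had its low library in cKO 1, with a summed level of 86.7 CPM against 184 to 199 CPM in the others. Most of it was Lhx6 and Nkx2-1, which also mark the ventral telencephalon. Lhx6 had 1622 and 1953 counts in the WT libraries and 1110 and 1849 in the cKO libraries, and Nkx2-1 had 1407 and 1035 counts in the WT libraries and 262 and 1166 in the cKO libraries. Barhl2, Otx2 and Gbx2 were also lowest in cKO 1, and the part of ventral or hypothalamic tissue in those values was not tested. The sum of 13 ventral telencephalic genes, Nkx2-1 among them, was 811 CPM in cKO 1 and from 1180.2 to 1252 CPM in the others.

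Markers of the tissues in which Otx2 and Lmx1a are known to be active were also highest in WT 1. In bulk tissue, fewer cells of a type cannot be told apart from less RNA per cell. The 13 choroid plexus genes (members left out) summed to 89.7 and 21.7 CPM in the WT libraries and to 23.0 and 26.1 CPM in the cKO libraries. Of the 5 tested, 3 were called lower in cKO at the study's thresholds, beside 0.669% of all genes tested. They were the serotonin receptor gene Htr2c (log2 fold change -3.44), the water channel gene Aqp1 (-2.66) and the potassium channel subunit gene Kcne2 (-3.33). WT 1 was at least 2-fold above WT 2 for all 5, beside 4.31% of all genes tested. Htr2c had 101 and 18 counts in the WT libraries and 4 and 7 in the cKO libraries, so WT 2 lay nearer to cKO than to WT 1. Kcne2 had 183 and 4 counts in the WT libraries and 13 and 6 in the cKO libraries, so WT 2 was the lowest library. The tight junction gene Cldn2, named after its values were seen, had 12 counts in WT 1 and 0 in the other 3 libraries, and the folate receptor gene Folr1 had 67 and 0 in the WT libraries and 8 and 4 in the cKO libraries. Other genes of this list that were not tested differed in this. WT 2 was above both cKO libraries for Slc4a5 (53 and 10 counts for WT, 1 and 1 for cKO), Kl (9 and 4, then 3 and 1) and Prlr (6 and 4, then 3 and 1). It was not for Calml4, Kcnj13 and Sostdc1. Ttr, the thyroid hormone carrier made in quantity by choroid plexus, was read only in the table of WT 1 and cKO 1, where it had 5071 and 23 counts.

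The 13 cortical hem genes (members left out) summed to 141 and 54.3 CPM in the WT libraries and to 70.1 and 63.7 CPM in the cKO libraries. Of the 12 tested, 0 had an unadjusted p under 0.05 and all 12 had a log2 fold change below 0 (median -0.89). WT 1 was at least 2-fold above WT 2 for 9 of the 12, beside 4.31% of all genes tested. The 10 meningeal genes summed to 218 and 47.0 CPM in the WT libraries and to 61.6 and 35.3 CPM in the cKO libraries. Of the 7 tested, 2 (Col1a1 and Col1a2) were called lower in cKO, beside 0.669% of all genes tested. The highest value was in WT 1 for all 24 tested genes of these 3 lists together, beside 25.1% of all genes tested. The part of these tissues in the levels of Otx2 and Lmx1a was not tested. WT 2, with the same label as WT 1, lay within or below the range of the cKO libraries in all 3 sums. Foxj1 and Enpp2 made up most of the choroid plexus sum in WT 2 (11.2 and 6.35 of 21.7 CPM). They did so as well in cKO 1 (12.2 and 7.10 of 23.0 CPM) and cKO 2 (17.5 and 6.32 of 26.1 CPM). With these 2 genes left out, the choroid plexus sum was higher in WT 2 than in both cKO libraries. By single genes, 2 of the 5 choroid plexus genes tested (Htr2c and Aqp1) were lower in both cKO libraries than in both WT libraries. So were 1 of the 7 meningeal genes (Foxc1) and 0 of the 12 hem genes, beside 10.8% of all genes tested.

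**Figure D4:**
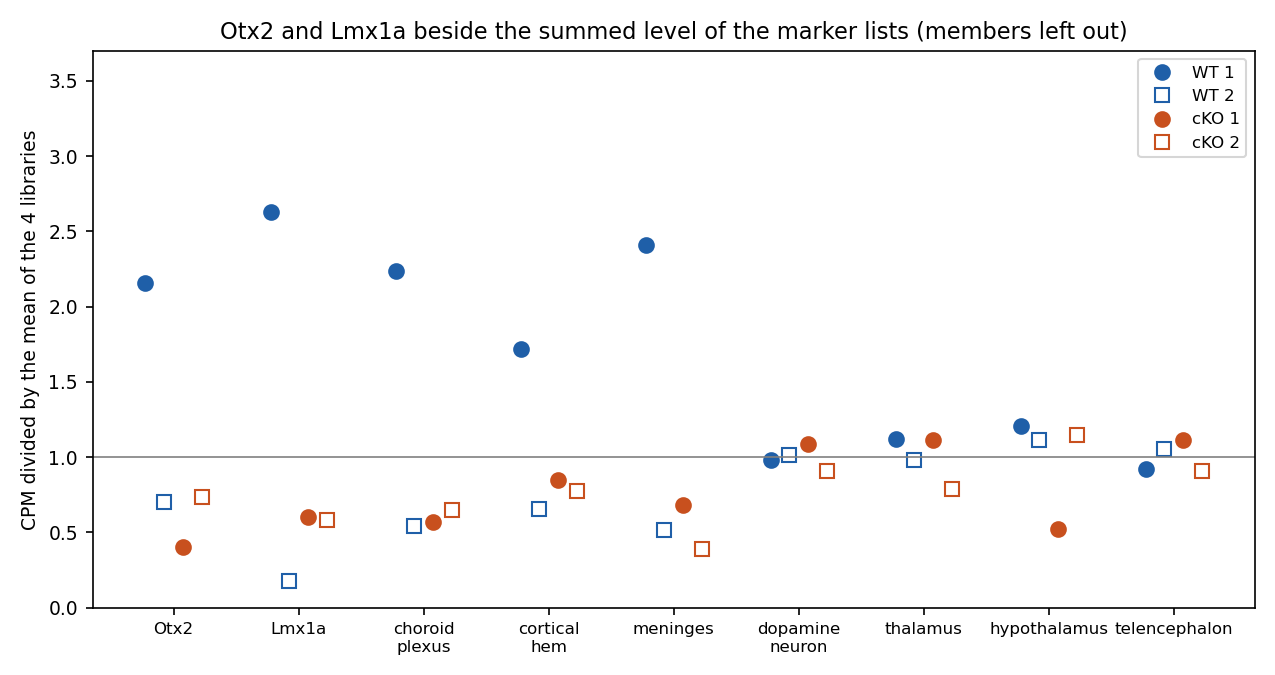
Otx2, Lmx1a and the summed CPM of 7 marker lists (the 9 members left out of each) in each library, divided by the mean of the 4 libraries (linear axis from 0; blue for WT, orange for cKO, filled for replicate 1 and open for replicate 2). WT 1 stands at 2.16 for Otx2, 2.63 for Lmx1a and 2.24 for the choroid plexus list, and at 0.985 for the dopamine neuron list.

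No gene of the cortical and ventral telencephalic lists met the study's thresholds. The 12 telencephalic and cortical genes were all tested, 0 had an unadjusted p under 0.05, and their median log2 fold change was 0.13, with 4 genes (Emx1, Eomes, Fezf2 and Lhx2) higher in both cKO libraries than in both WT libraries, as were 11.0% of all genes tested. Of the 13 ventral telencephalic genes, all were tested and 1 had an unadjusted p under 0.05, beside 1.23% of all genes tested. This was the GABA synthesis gene Gad1 (log2 fold change -0.45, standard error 0.15). All 13 had a log2 fold change below 0 (median -0.28), and 3 (Gad1, Isl1 and Gad2) were lower in both cKO libraries than in both WT libraries, beside 10.8% of all genes tested. The 8 genes of Cajal-Retzius cells and thalamic eminence were all tested and 0 had an unadjusted p under 0.05 (median log2 fold change -0.02). None of the midbrain and isthmus genes passed the filter, and of the hindbrain genes 1, Slc6a4, did, with an unadjusted p of 0.626.

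Genes whose levels followed those of the 3 members with the widest range over the libraries were found by the distance between centred log2 CPM values over the 4 libraries. Lmx1a (a range of 2.67 on the log2 scale with 0.5 CPM added) lay nearest to Wnt9a at a distance of 0.25, with 78 and 5 counts in the WT libraries and 14 and 19 in the cKO libraries, followed by Slc2a12 (0.34) and Cfap126 (0.40). Otx2 (a range of 2.27) lay nearest to 8430408G22Rik at 0.29 and Ace at 0.29, then Hsd3b6 at 0.41. Ace, the angiotensin-converting enzyme, had 119 and 51 counts in the WT libraries and 20 and 45 in the cKO libraries. Lmx1b, with its few counts (a range of 1.18), lay nearest to Zic4 (0.05), Egflam (0.09) and Vwf (0.10). With 4 libraries many genes can share such a profile, and the distances are given as a description.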

How the data were processed

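The 9 genes were read in RNA-seq libraries of E13 tissue made by the authors from 2 µg of total RNA and sequenced on an Illumina HiSeq instrument. The authors deposited raw counts of reads per gene for 4 libraries (27304 rows, of which 11, or 0.0403%, were blank and left out) and for WT 1 and cKO 1 alone. All 21342 genes in both tables had identical counts. The submitters' processing notes name TopHat2 2.0.12, Bowtie2 2.2.3, HTSeq 0.6.0 and the build mm9. The deposited positions were those of GRCm38, however, with a start or end within 1 base of GENCODE M21 for 97.3% of 27232 genes, and are given as such. The strand setting is not given in the sources used here, so reads of a gene and of a transcript antisense to it cannot be told apart. Columns of the authors' own fold changes, p-values and normalized values were not used.

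The 16145 genes left by filterByExpr were fitted in edgeR 4.0.16 (R 4.3.3) with TMM factors and no covariate, and cKO was compared with WT by the quasi-likelihood test, with Benjamini-Hochberg adjustment across all genes tested. Standard errors are the absolute log2 fold change over the square root of the F statistic, and the 95% intervals use the same fit. CPM are counts over effective library size. Ratios of single libraries have exact Clopper-Pearson intervals (scipy 1.17.1). DESeq2 1.42.0, other normalizations and filters, a replicate block and each library left out were alternatives. With 2 libraries a group no permutation test can reach a small p. The code was tested on simulated data. The members and 12 gene lists were chosen with earlier results of these data known. Named genes were the members, up to 4 genes of each list by smallest p and the 3 nearest profiles. Slc6a3, Cldn2, Folr1, Ttr, Lhx2 and the term's genes were named after their values were seen. So were Foxj1, Slc4a5, Kl, Prlr, Calml4, Kcnj13 and Sostdc1. Some list genes were not analysed here.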

Additional observations from a re-analysis of the deposited data

How the results depend on the processing

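With all 4 libraries 1 member met the study's thresholds and 0 had an adjusted p under 0.05 in edgeR's fit (1 had an unadjusted p under 0.05, and 0 passed adjustment with DESeq2). RLE or upper-quartile normalization, DESeq2 and at least 10 counts in every library left both counts as they were. With no filter beyond 1 count, 3 members met the thresholds (Otx2, Lmx1a and Lmx1b) and 1 passed adjustment (Otx2, adjusted p of 0.00510 from edgeR). The cause was not tested. With each library left out, the counts ran from 0 to 2 for the thresholds and from 0 to 2 for the adjusted p. Without WT 1, and without cKO 1, no member met the thresholds. Without WT 2, Otx2 and Lmx1a did and passed adjustment, and without cKO 2 Otx2 met them. The log2 fold change of Lmx1a ran from -2.13 without WT 2 to 1.70 without WT 1, and that of Nr4a2 from -0.21 without cKO 1 to 0.10 without WT 2 and 0.11 without cKO 2. Of 59 log2 fold changes of single members under the alternatives, these 3 changed sign, 2 fell short of the thresholds that the full fit met (Otx2, without WT 1 and without cKO 1) and 2 newly met them (Lmx1a, with no filter and without WT 2).

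Of the 82 other list genes tested, 6 had an unadjusted p under 0.05, beside 1.23% of all genes tested. There were 32 with no filter, 2 when every library needed at least 10 counts, a smaller set of genes, and between 2 and 32 with a library left out (2 without WT 1, 32 without WT 2, 23 without cKO 1 and 16 without cKO 2). The cause of the other shifts was not tested. With the replicate number as a block (replicate block) 1 member met the thresholds, as without it, and 19 list genes had an unadjusted p under 0.05. The labels give no origin for the numbers, and same-numbered libraries deviated from their group means with a correlation of 0.108 (16145 genes). At a pseudocount of 1 CPM, 2 members in cKO 1 against WT 1 and 0 in cKO 2 against WT 2 were lower by 2-fold or more, and at 0.1 CPM 4 and 0. Depth limits Lmx1b, Foxa2 and Foxb1, for which 3 counts are at most 0.173 CPM.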
